A study of Homo sapiens with 4 samples.

Results

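The genes described here are *NUMB*, its paralog *NUMBL*, the Notch receptor genes *NOTCH1*, *NOTCH2* and *NOTCH3*, the ligand genes *JAG1* and *JAG2*, the nuclear effector gene *RBPJ* and the target genes *HES1* and *HEY1*. They were taken by gene symbol and not by a rule on their values, though with earlier results of these data known. They make up 10 of the 16708 genes listed in at least 1 library. Their mRNA levels were measured by RNA-Seq in BEAS2B, a cell line made from human bronchial epithelium, virus transformed per the labels. The labels name 2 control libraries (sh-Ctrl) and 2 QKI-knockdown libraries (sh-QKI), numbered replicate 1 and replicate 2 in each group. Per the study's methods, control cells stably expressed an shRNA against luciferase and QKI-knockdown cells stably expressed 1 shRNA, sh-Q3, against all isoforms of QKI, an RNA-binding splicing regulator. Whether libraries with the same label came from separate cultures is not stated, and the p-values may then measure technical spread alone. The comparison of QKI-knockdown with control asks whether the mRNA of these genes changed in the cell line in which the study examined the splicing of *NUMB* exon 12 by QKI.

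Notch is a receptor that signals between touching cells. A ligand of the Jagged or Delta family on one cell binds the receptor on its neighbor, proteases then cut the receptor, and the released intracellular part enters the nucleus, binds the DNA-binding protein RBPJ and switches on target genes such as those of the HES and HEY families of transcriptional repressors. NUMB is an endocytic adaptor protein that inhibits Notch, and in the airway Notch directs basal progenitor cells toward secretory fates.

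The sequence around *NUMB* exon 12 is shown because the study examined the splicing of this exon by QKI. *NUMB* lies on the minus strand at chr14:73741815-73925323 (hg19, GRCh37), where its exons share 217 bp with an annotated lncRNA of the same strand, and exon 12 is a coding exon of 144 bases, or 48 codons, that 5 of 19 annotated coding transcripts contain. The preferred core of a QKI site is ACTAAC or ACTAAT in DNA letters, and shorter elements that end in TAAC or TAAT are also bound. In the sequence below, 100 bases of intron precede the exon, and capitals mark ATTAAC in the intron and CTAAT at the first base of the exon, with 29 bases of intron between the first element and the exon. These are the elements whose binding by QKI the study tested. A further TAAC, within CTAAC, starts at base 116 of the exon and is not marked.

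NUMB exon 12 with the intron before it, chr14:73745989-73746232, minus strand, GRCh37: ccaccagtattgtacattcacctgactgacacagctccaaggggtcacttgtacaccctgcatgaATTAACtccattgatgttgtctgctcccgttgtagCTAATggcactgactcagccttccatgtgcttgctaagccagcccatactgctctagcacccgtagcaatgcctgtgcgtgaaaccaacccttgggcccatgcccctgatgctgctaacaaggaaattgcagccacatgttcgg

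Neither ACTAAC nor ACTAAT is in the 100 intron bases and 144 exon bases shown, on the transcribed strand, the only strand searched. Among 171431 annotated internal exons, 2.37% had ATTAAC in the last 100 bases of intron, 1.86% had CTAAT in the first 50 bases of the exon and 0.0653% had both. Of these exons, 4.51% had ACTAAC or ACTAAT within those 100 intron and 50 exon bases, a shorter window than the one shown for *NUMB*. For the other exons a match is a description of the sequence only.

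**Figure D1:**
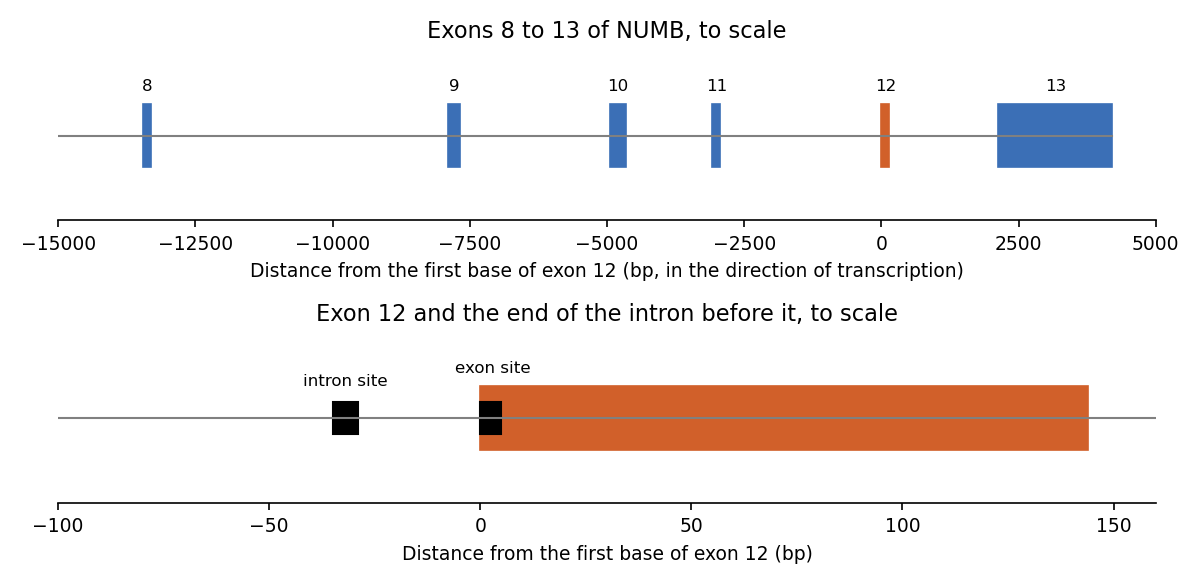
Exons of NUMB drawn to scale along the distance in bp from the first base of exon 12, with exons 8 to 13 in the upper panel and exon 12 with the last 100 bases of intron in the lower panel. Exon 12 (orange, 144 bp) carries the exon site at its first base, and 29 bp separate the intron site from it.

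A gene's RPKM, which scales reads by gene length and library total, counts the reads of all its exons together. Exon 12 made up 2.56% of the gene length behind the *NUMB* values, so these values measure the whole mRNA and not the share of transcripts that contain exon 12. Inclusion of the exon was not analysed here.

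The totals behind the RPKM values were between 20052951 and 34862008 reads per library, and both libraries numbered 1 had fewer than both numbered 2. *QKI*, the targeted gene, was at 8.94 and 14.6 RPKM in control replicates 1 and 2 and at 2.52 and 3.85 RPKM in QKI-knockdown replicates 1 and 2. The groups did not overlap, and *QKI* was at 0.282 times its control level within replicate 1 and at 0.264 times within replicate 2. Its log2 fold change was -1.72 (SE 0.38) with an adjusted p of 1.00 by limma without a block, whereas a block for the replicate number gave 3.16e-33, and the block with no limit on low values gave 0.0669. With the block and the limit, standard errors rest almost wholly on the spread of all genes of similar level. The intervals and p-values of that fit, here and below, therefore do not measure a gene's own agreement between replicates. The hairpin target below matched *QKI* transcripts (13 of 17 annotated) and no transcript of another gene exactly, and none of the members came closer than 3 mismatches.

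sh-Q3 target: GAAGAGAGCAGTTGAAGAA

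Markers of the labelled cell type were mixed. Of 8 epithelial markers, the keratin genes *KRT7*, *KRT8* and *KRT18* were between 20.7 and 264 RPKM in each library. The others were low, with *KRT19* between 0.113 and 0.875 RPKM and *EPCAM* between 0.619 and 0.811 RPKM. *CDH1*, which encodes E-cadherin, was at most 0.181 RPKM, *TP63* was at most 0.00463 RPKM and *KRT5* was listed in none. Summed RPKM of the 5 mesenchymal markers was between 496 and 1291, with *VIM* highest and *COL1A2* at most 0.0031 RPKM. The epithelial list summed to between 216 and 683 RPKM, and in both lists the libraries numbered 1 were the higher ones in both groups. Airway secretory and ciliated markers (3 genes) summed to at most 0.0931 RPKM and endothelial markers (2 genes, 1 listed) to at most 0.230 RPKM, and of the blood list only *CD14* exceeded 0.01 RPKM, at 0.794 and 0.815 in the libraries numbered 1 and at 4.84 and 5.22 in those numbered 2. The part of these differences between the numbers in the results below was not tested.

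Among the members, *NOTCH2* had the highest level per length and *HEY1* the lowest. By mean RPKM over the 4 libraries the order was *NOTCH2* (34.3), *NUMB* (17.8), *RBPJ* (11.05), *NUMBL* (8.59), *NOTCH1* (8.55), *JAG2* (2.75), *HES1* (1.33), *JAG1* (1.301), *NOTCH3* (0.536) and *HEY1* (0.235). From *RBPJ* to *JAG1* in this order, each gene's range over the libraries overlapped that of its neighbor, and the ranges of the other neighbors did not overlap. The length behind each RPKM differed from the length of the annotated exons, from 0.59 times for *NUMB* to 2.02 times for *HEY1*, so neighbors in this order can change places with another gene model. *NOTCH2* shares near-identical sequence with the NOTCH2NL genes, and ambiguously aligned reads were left out by the authors, so its level is uncertain.

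**Figure D2:**
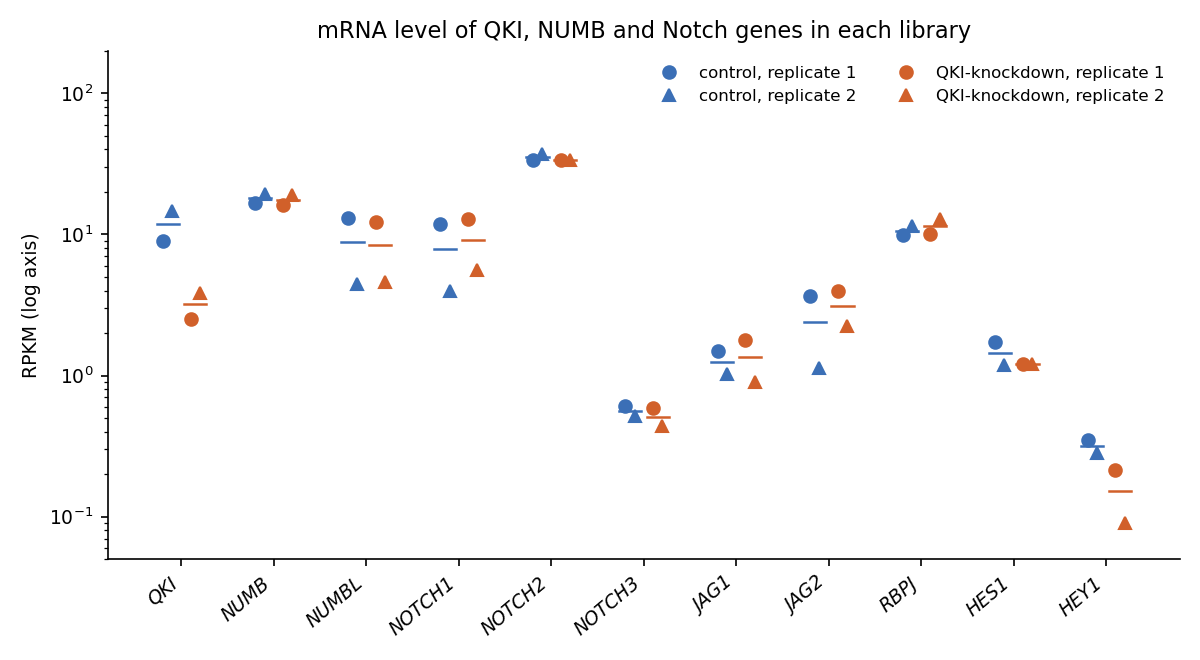
RPKM on a log axis for QKI and the 10 members, with blue for control, orange for QKI-knockdown, circles for replicate 1, triangles for replicate 2 and a bar at each group's mean of 2 libraries. QKI and HEY1 are lower in both QKI-knockdown libraries than in both control libraries, and for NUMBL, NOTCH1 and JAG2 the circles lie above the triangles in both groups.

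*NUMB* mRNA was at nearly the same level with and without the knockdown within each replicate number. It was at 16.8 and 19.5 RPKM in control replicates 1 and 2 and at 16.1 and 19.0 RPKM in QKI-knockdown replicates 1 and 2. Both libraries numbered 2 were above both numbered 1, and the groups overlapped. The QKI-knockdown library had 0.957 times the control level within replicate 1 (95% counting interval 0.897 to 1.02) and 0.977 times within replicate 2 (0.934 to 1.02). These intervals are exact binomial intervals from the reads recovered from the RPKM, between 1859 and 3803 per library for *NUMB*, and cover counting error only. The log2 fold change, here and below on the scale of log2(RPKM + 0.5), was -0.05 (SE 0.26, adjusted p = 1.00 by limma), and with the replicate block its 95% interval was -0.28 to 0.19.

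*NUMBL*, which encodes the NUMB-like adaptor, lies on the minus strand at chr19:41171810-41196877. It was at 13.1 and 4.45 RPKM in control replicates 1 and 2 and at 12.2 and 4.59 RPKM in QKI-knockdown replicates 1 and 2. The libraries numbered 1 were the high ones in both groups, and the groups overlapped. Within the replicate numbers the log2 change was -0.10 and 0.04, whereas the libraries numbered 2 differed from those numbered 1 by -1.46 in control and -1.32 in QKI-knockdown cells. *NUMB* accordingly made up 56.1% and 81.4% of *NUMB* plus *NUMBL* in control replicates 1 and 2 and 56.8% and 80.6% in QKI-knockdown replicates 1 and 2. The group means were 68.7% ± 17.9 (SD, n = 2) and 68.7% ± 16.8 (SD, n = 2), with p = 1.00 in a two-sided exact permutation test, which with 2 against 2 libraries cannot go below 0.333.

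The 3 tested genes whose pattern over the 4 libraries was nearest to that of *NUMB* were *UBE2L3*, *ALAD* and *FBXO33*, at Euclidean distances of 0.01, 0.02 and 0.02 on the log2 scale after centring each gene. *UBE2L3*, which encodes a ubiquitin-conjugating enzyme, was at 16.6, 19.0, 15.8 and 18.8 RPKM in control 1, control 2, QKI-knockdown 1 and QKI-knockdown 2. With 4 libraries that differ mostly by number, many genes can have such a pattern.

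Of the receptor genes, *NOTCH1* was higher in QKI-knockdown cells within both replicate numbers, but its groups overlapped and it did not pass the test. *NOTCH1* lies on the minus strand at chr9:139388885-139440500. It was at 11.9 and 3.97 RPKM in control replicates 1 and 2 and at 12.8 and 5.58 RPKM in QKI-knockdown replicates 1 and 2. The libraries numbered 1 were the high ones in both groups. The ratio of QKI-knockdown to control was 1.07 within replicate 1 (counting interval 1.02 to 1.13) and 1.40 within replicate 2 (1.31 to 1.502). The log2 fold change was 0.27 (SE 0.67, adjusted p = 1.00 by limma). With the replicate block the interval was 0.02 to 0.53, with an unadjusted p of 0.0377 and an adjusted p of 0.736. With the block and no limit on low values the interval was -0.04 to 0.58 (unadjusted p = 0.0780 by limma).

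*NOTCH2*, on the minus strand at chr1:120454176-120643366, stayed within a narrow range in the 4 libraries. It was at 33.4 and 36.9 RPKM in control replicates 1 and 2 and at 33.5 RPKM in both QKI-knockdown replicates. Control replicate 2 was the highest library and the other 3 were close together, so the groups overlapped. With between 12834 and 24539 reads per library the ratio was 1.00 within replicate 1 (0.978 to 1.03) and 0.906 within replicate 2 (0.890 to 0.923), and the log2 fold change was -0.07 (SE 0.25, adjusted p = 1.00 by limma).

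*NOTCH3*, on the minus strand at chr19:15269849-15311806, was at 0.606 and 0.518 RPKM in control replicates 1 and 2 and at 0.584 and 0.437 RPKM in QKI-knockdown replicates 1 and 2. The groups overlapped, and the QKI-knockdown library was the lower one within both numbers. With 97 to 145 reads per library both counting intervals included 1 (0.721 to 1.29 and 0.659 to 1.08), so a difference of this size was not detectable at this depth. As shares of the 3 receptor mRNAs per length, *NOTCH2* made up 72.8% and 89.2% in control replicates 1 and 2 and 71.5% and 84.8% in QKI-knockdown replicates 1 and 2. *NOTCH1* made up 25.9% and 9.59% in control and 27.2% and 14.1% in QKI-knockdown replicates 1 and 2. *NOTCH3* made up 1.319% and 1.250% in control and 1.247% and 1.107% in QKI-knockdown replicates 1 and 2. *NOTCH2* was thus the main receptor mRNA per length in every library, with the uncertainty given above. The shares of *NOTCH1* and *NOTCH2* differed between the replicate numbers by more than between the groups.

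Of the ligand genes, *JAG2* had the largest difference of any tested member, and most of it came from replicate 2. *JAG2* encodes a ligand of the Jagged family and lies on the minus strand at chr14:105607319-105635161, where its exons share 469 bp with an annotated lncRNA. It was at 3.67 and 1.12 RPKM in control replicates 1 and 2 and at 3.98 and 2.23 RPKM in QKI-knockdown replicates 1 and 2. Control replicate 2 was the low library, and the groups overlapped because QKI-knockdown replicate 2 was below control replicate 1. From 772 and 858 reads the ratio within replicate 1 was 1.08 (0.982 to 1.196), and from 409 and 816 reads that within replicate 2 was 1.99 (1.76 to 2.24). The log2 fold change was 0.43 (SE 0.57, adjusted p = 1.00 by limma). With the replicate block the interval was 0.13 to 0.72, with an unadjusted p of 0.00416 and an adjusted p of 0.208. The SE with the block was 0.15, close to the 0.12 of *NUMB*, although the changes of *JAG2* within the numbers lay further apart. With the block and no limit on low values the interval was -0.05 to 0.90 (unadjusted p = 0.0707 by limma). Without control replicate 2 the log2 fold change was -0.25. That fit set control replicate 1 against both QKI-knockdown libraries, so it includes the difference between the numbers. For *JAG2* that difference was -0.71 (log2) in QKI-knockdown cells, whereas the change within replicate 1 was 0.10.

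*JAG1*, which encodes the other Jagged ligand, lies on the minus strand at chr20:10618332-10654647 and shares 306 bp of exon with an lncRNA annotated on the other strand. It was at 1.49 and 1.02 RPKM in control replicates 1 and 2 and at 1.80 and 0.893 RPKM in QKI-knockdown replicates 1 and 2. The QKI-knockdown libraries were the highest and the lowest of the 4, so the change went in opposite directions within the numbers, at 1.21 times (1.01 to 1.45) and 0.877 times (0.731 to 1.05). *JAG1* made up 28.9% and 47.6% of the 2 ligand mRNAs in control and 31.1% and 28.6% in QKI-knockdown replicates 1 and 2, and the exact permutation test over the 4 libraries gave p = 0.667.

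**Figure D3:**
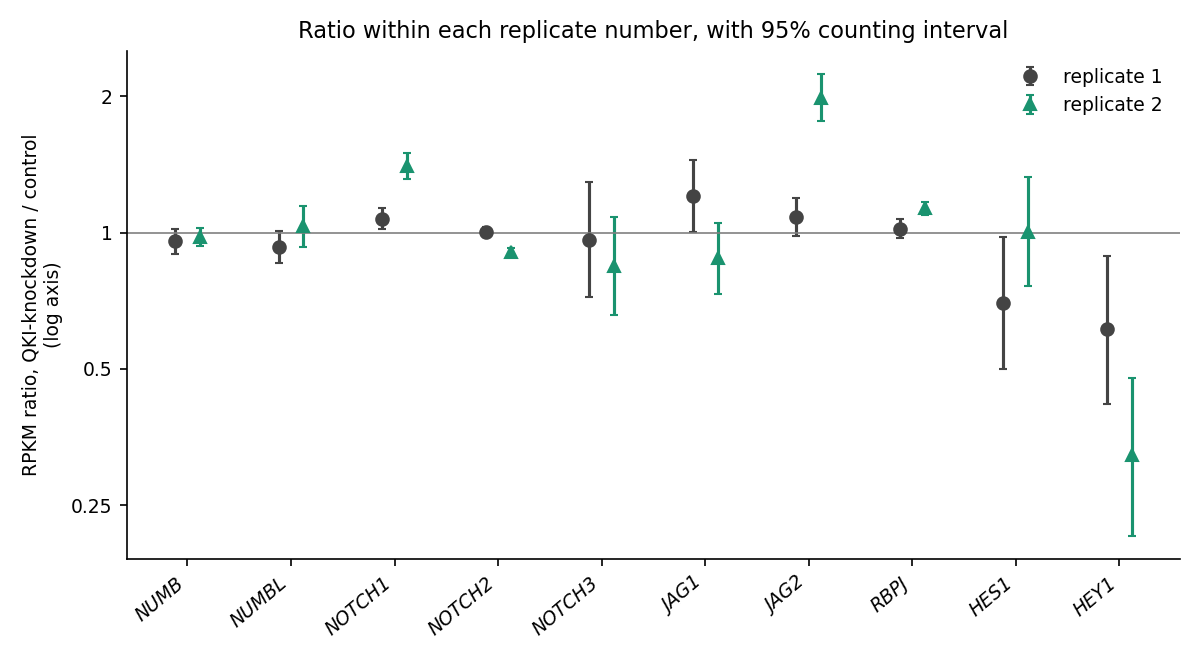
RPKM ratio of QKI-knockdown to control on a log axis for each member within replicate 1 (circles) and replicate 2 (triangles), with 95% exact binomial intervals that cover counting error only. NUMB lies near 1 in both numbers, JAG2 is at 1.08 and 1.99, and HEY1 is below 1 in both.

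*RBPJ*, which encodes the DNA-binding protein that the cleaved receptor joins, lies on the plus strand at chr4:26165077-26436753. It was at 9.83 and 11.4 RPKM in control replicates 1 and 2 and at 10.0 and 12.9 RPKM in QKI-knockdown replicates 1 and 2. The libraries numbered 2 were the higher ones, and the groups overlapped. The ratio was 1.02 within replicate 1 (0.971 to 1.07) and 1.13 within replicate 2 (1.09 to 1.17), with a log2 fold change of 0.10 (SE 0.28, adjusted p = 1.00 by limma).

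Neither of the target genes was higher in QKI-knockdown cells within replicate 1. *HES1*, a repressor gene and direct target of Notch, lies on the plus strand at chr3:193853937-193856521. It was at 1.72 and 1.19 RPKM in control replicates 1 and 2 and at 1.203 and 1.198 RPKM in QKI-knockdown replicates 1 and 2. Control replicate 1 was the one high library, and the groups overlapped. From 64 to 108 reads per library the ratio was 0.701 within replicate 1 (0.5003 to 0.977) and 1.00 within replicate 2 (0.762 to 1.33), and the log2 fold change was -0.19 (SE 0.27, adjusted p = 1.00 by limma).

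The promoter of *HES1* is shown because it holds the letters that RBPJ binds. In the RefSeq window around the start of the gene below, capitals mark TGGGAA, the core of an RBPJ site, which occurs 2 times with its last base 79 and 65 bases before the start. Both strands were searched.

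HES1 promoter, chr3:194135898-194136197, plus strand, GRCh38.p14: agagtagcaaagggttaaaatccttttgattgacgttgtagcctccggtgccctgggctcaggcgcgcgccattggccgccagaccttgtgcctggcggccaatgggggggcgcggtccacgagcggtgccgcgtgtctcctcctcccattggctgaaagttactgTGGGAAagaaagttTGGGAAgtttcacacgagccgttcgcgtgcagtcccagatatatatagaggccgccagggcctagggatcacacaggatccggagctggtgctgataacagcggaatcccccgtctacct

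Of 35116 promoter windows of that length, 24.0% held TGGGAA at least once and 3.80% held it 2 or more times. Among the members with a window, *HES1* and 1 of 5 windows of *RBPJ* held it, and *NUMB*, *NUMBL*, *NOTCH1*, *NOTCH2*, *NOTCH3*, *JAG1* and *JAG2* did not.

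*HEY1*, a second repressor gene downstream of Notch, was the one member that was lower in both QKI-knockdown libraries than in both control libraries, at levels too low for the test. It was at 0.352 and 0.281 RPKM in control replicates 1 and 2 and at 0.215 and 0.0908 RPKM in QKI-knockdown replicates 1 and 2. From 78 and 49 reads the ratio within replicate 1 was 0.612 (0.419 to 0.887), and from 108 and 35 reads that within replicate 2 was 0.323 (0.214 to 0.476). Its mean of 0.235 RPKM lay under the limit of 0.5 RPKM, and of the 4879 genes under that limit 11.5% had groups that did not overlap with QKI-knockdown lower and 1.54% had counting intervals below 1 within both numbers. In the fit with no limit its log2 fold change was -0.33 (SE 0.13) with an unadjusted p of 0.0598 and an adjusted p of 1.00 by limma. With no limit and the replicate block the unadjusted p by limma was 0.0037 and the adjusted p 0.497. The 0.5 added to each RPKM exceeded every *HEY1* value, so the log2 fold change of -0.33 is smaller in size than the ratios above imply. *HEY2*, a related target gene, had 1 read in control replicate 1 and 0 reads in the other 3 libraries, where 0 reads allow at most 0.0314 to 0.0532 RPKM (3 reads).

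None of the 9 members with a mean of at least 0.5 RPKM passed limma without a block, and neither did any other of the 11829 genes tested (0%), *QKI* included. Since this fit did not call the targeted gene itself, it cannot show that a member was unchanged. At an unadjusted p under 0.05 there were 13 genes, none of them a member, and limma's voom on the recovered reads without a block called none either. With the replicate block 58 genes were called higher (0.490%) and 43 lower (0.364%), with *QKI* among the latter, and again none of the 9 members, of which *JAG2* and *NOTCH1* had an unadjusted p under 0.05. With the block and no limit on low values, the unadjusted p by limma was 0.0707 for *JAG2* and 0.0780 for *NOTCH1*. Groups that did not overlap were found for 5.71% of all tested genes with QKI-knockdown higher and for 2.89% with QKI-knockdown lower, and for none of the 9 members. Counting intervals lay above 1 within both numbers for 1 of the 9, *NOTCH1*, and for 10.6% of all tested genes, and below 1 within both for 0 of the 9 and 4.33% of all. The median log2 fold change was -0.03 over the 9 members, with a range of -0.19 to 0.43, and 0.03 over all tested genes, and none of the 9 was over 2-fold apart within either number on this scale.

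The replicate number separated the libraries more than the knockdown did for most members. For 6 of the 9, both changes within a number were smaller than both differences between the numbers, as for 71.7% of all tested genes. Per the study's methods the sequencing was done 2 times at different read lengths, and the labels do not say which number had which length. The GC content of the annotated exons moved with the difference between the numbers. Across 11616 tested genes with annotation (98.2%), Pearson's r between GC content and the difference of replicate 2 minus replicate 1 was -0.704 in control and -0.616 in QKI-knockdown cells, and across the 9 members it was -0.796 and -0.726. These correlations are across genes measured in the same libraries and are given as a description. *NUMBL* (58.8% GC), *NOTCH1* (63.2%) and *JAG2* (64.2%) had the lowest values of replicate 2 minus replicate 1 in control cells, between -1.47 and -1.36, whereas *NOTCH3*, at 62.4%, was at -0.12. *NOTCH3* was between 0.437 and 0.606 RPKM, close to the added 0.5, which shrinks its differences on this scale.

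GC content also moved with the change on knockdown, in opposite directions in the 2 numbers. Across the same genes r between GC content and the change was -0.348 within replicate 1 and 0.473 within replicate 2. The 1214 genes with 60% to 65% GC had a median change of 0.18 within replicate 2 and a 95th percentile of 0.43, and a median of -0.10 within replicate 1. Beside these, the change within replicate 2 was 0.75 for *JAG2*, 0.44 for *NOTCH1* and, in the same range of GC content, -0.12 for *NOTCH3*, with the limit of its low level given above. The part of GC content in the changes of *JAG2* and *NOTCH1* was not tested.

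**Figure D4:**
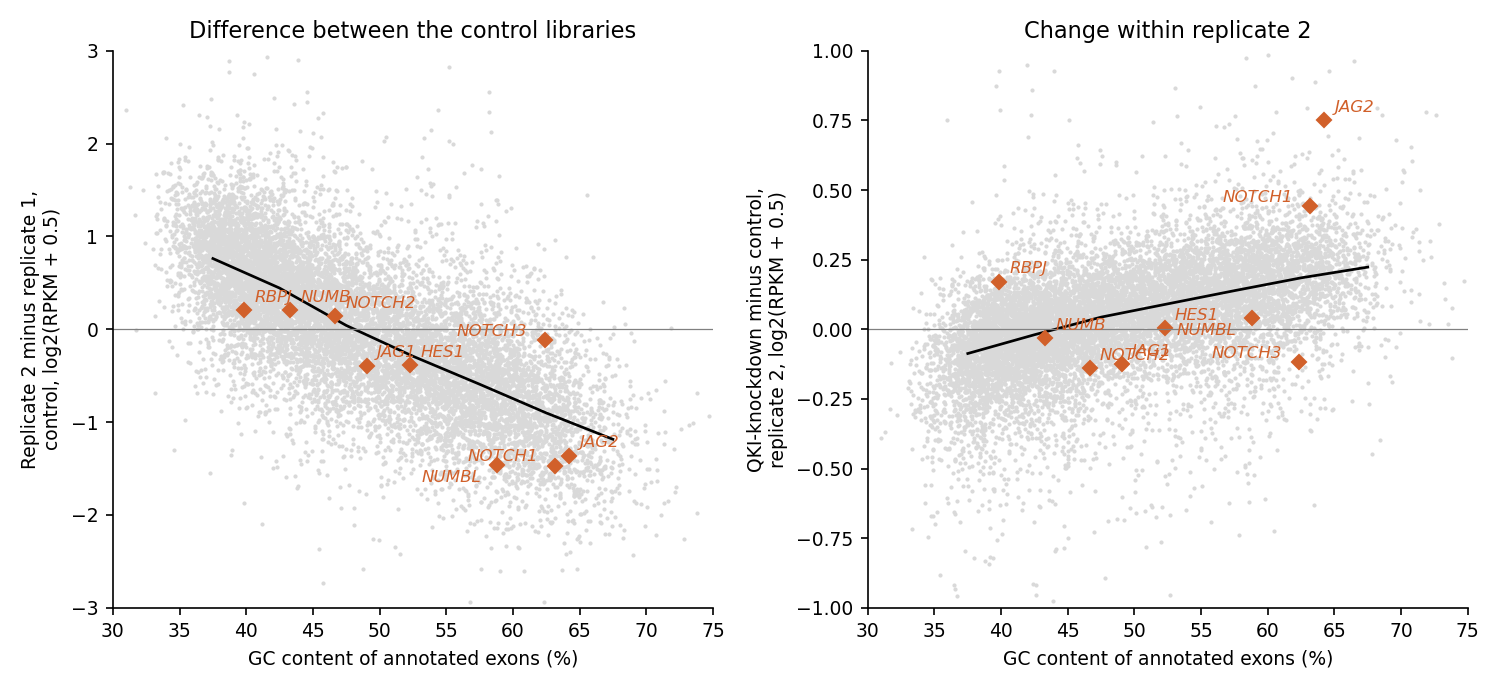
GC content of annotated exons against the difference between the control libraries (left) and the change on knockdown within replicate 2 (right), both in log2(RPKM + 0.5), with all tested genes in grey, medians of 5% GC steps as a line and the 9 tested members in orange. NUMBL, NOTCH1 and JAG2 lie at the lower right on the left, and JAG2 at 0.75 lies on the right above the 95th percentile of 0.43 for genes with 60% to 65% GC (genes beyond the axes are not drawn).

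Other Notch pathway genes, a list of 74 genes grouped by role of which 72 were listed and 59 tested, gave no call in either fit. No gene of the list had an unadjusted p under 0.05 without the block, and *DNER* and *CCND1* had one with the block. The median log2 fold change was 0.05, against 0.03 over all tested genes. The change was in the same direction within both numbers for 23 genes that were higher (39.0%) and 6 that were lower (10.2%), against 31.7% and 16.6% of all tested genes. Groups did not overlap for 3 genes with QKI-knockdown higher, the protein O-fucosyltransferase gene *POFUT1*, the transcriptional coactivator gene *SNW1* and the histone deacetylase gene *HDAC1*, and for 1 with QKI-knockdown lower, *DNER*, against 5.71% and 2.89% of all tested genes.

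*DNER*, which encodes a neuronal Notch ligand without the binding domain of the Delta and Jagged families, had the lowest log2 fold change on the list among genes with the same sign within both numbers. It was at 8.89 and 9.81 RPKM in control replicates 1 and 2 and at 7.43 and 6.38 RPKM in QKI-knockdown replicates 1 and 2. Its log2 fold change was -0.41, with an adjusted p of 1.00 by limma and of 0.105 with the replicate block. The next were *CCND1*, which encodes cyclin D1, with changes of -0.10 and -0.56 within replicates 1 and 2, and *LFNG*, which encodes the sugar transferase Lunatic Fringe, with changes of -0.19 and -0.30. The highest values with the same sign within both numbers were those of *NRARP*, a Notch target whose product restrains the pathway, at 0.17 and 0.43, of the O-glucosyltransferase gene *POGLUT1* at 0.24 and 0.14, and of *SNW1* at 0.26 and 0.09. None of these passed limma in either fit.

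By role, the list held 3 tested ligand genes with a median log2 fold change of 0.17, 4 sugar transferases of the receptor with 0.11, 9 proteases with 0.08 and 18 genes of endocytosis and ubiquitin ligases with 0.06. The 7 coactivators had a median of 0.06, the 13 corepressors one of 0.02 and the 5 target genes one of -0.09. Of the proteases, which include the ADAM and presenilin genes that cut the receptor, 5 of 9 were higher within both numbers and none was lower within both. Of all tested genes, 31.7% were higher and 16.6% lower within both. The log2 fold changes of the proteases were between -0.03 and 0.13. For all 9, both changes within a number were smaller than both differences between the numbers, as for 71.7% of all tested genes. Of the target genes, *HES6* (-0.22), *CCND1* (-0.33) and *NRARP* (0.30) had the same sign within both numbers, and *HES4* (-0.06) and *MYC* (-0.09) did not. These medians carry no test of their own.

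**Figure D5:**
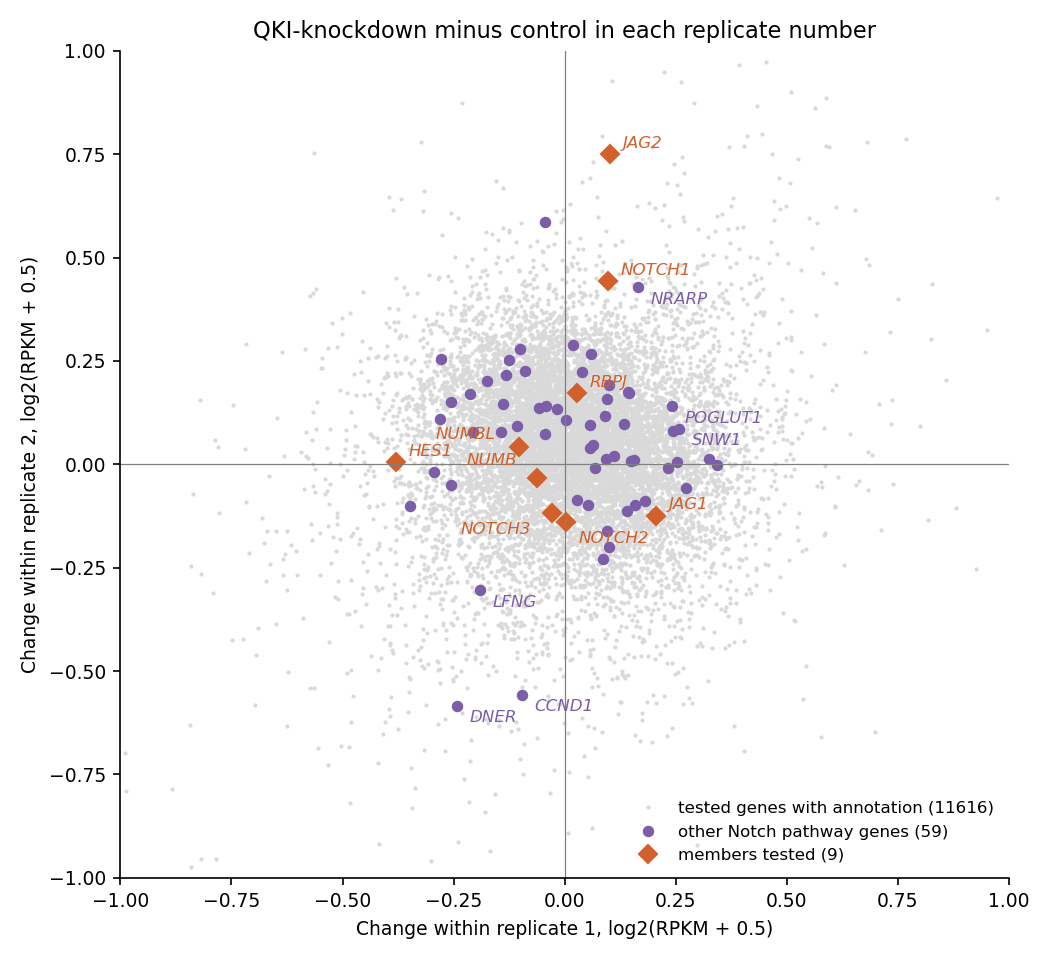
Change of QKI-knockdown minus control in log2(RPKM + 0.5) within replicate 1 (horizontal) and within replicate 2 (vertical) for the 9 tested members (orange), the 59 other tested Notch pathway genes (purple) and all 11616 tested genes with annotation (grey), of which 27 lie beyond the axes. JAG2 (0.10 and 0.75) and NOTCH1 (0.10 and 0.44) lie high in replicate 2 and near 0.10 in replicate 1, DNER is lowest of the purple points, and NUMB is near 0 on both axes.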

How the data were processed

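Each deposited table holds RPKM that the authors computed for 1 library from single-end Illumina GAII reads of TruSeq RNA libraries, which they aligned with Bowtie, whose version was not given in the sources used here, to hg19, the build in the submitters' processing notes, and to exon junctions of Ensembl protein-coding genes, with ambiguous reads left out. The read counting, its use of strand and the gene lengths are not stated in these sources. Genes absent from a table were set to 0 RPKM. Whole reads were recovered from the RPKM (100% of values whole at a relative tolerance of 1e-11). The reads over genes sum to 1.35 to 1.53 times the library totals. The cause was not tested, and if reads were counted more than once within a gene, the counting intervals are too narrow.

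Genes whose mean reached 0.5 RPKM were tested with limma 3.58.1 (R 4.3.3, mean-variance trend) on log2(RPKM + 0.5), two-sided, at a Benjamini-Hochberg adjusted p under 0.05 over all tested genes. Same-numbered libraries deviated together (r = 0.953 across genes). The labels tie a number to no shared culture, so it was used as a batch term, and the fit with it as a block is given beside the fit without it. Voom ran on the recovered reads, which were rebuilt and are no raw counts. Shares used exact permutation tests. The genes named were the members, *QKI*, *HEY2*, called genes of the pathway list and its 3 largest rises and 3 largest falls shared by both numbers, the 3 genes nearest to *NUMB* and the markers. *POFUT1*, *HDAC1*, *HES4*, *HES6* and *MYC*, and the genes named in the closing section, were chosen after their values were seen. The members and lists were chosen with earlier results of these data known. Positions and GC content come from GENCODE on GRCh37 (97.5% of genes matched), the hairpin from the study's oligonucleotide list and promoters from RefSeq. Python 3.11.15, numpy 2.4.6, pandas 2.3.3, scipy 1.17.1 and matplotlib 3.10.9 were used. Alternatives were the pseudocounts 0.1 and 1, no limit on low values, a limit of 1 RPKM, median centring, the block, voom and leaving out each library, and no limit with the block was added after the data were examined.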

Additional observations from a re-analysis of the deposited data

How the results depend on the processing

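The replicate block raised the number of genes called among all tested genes from 0 to 101 (58 higher and 43 lower). It was 114 (48 higher and 66 lower) with median centring and the block and 50 (25 and 25) with voom on the recovered reads and the block. Leaving out 1 library gave between 0 and 3 calls, with 1 without control replicate 1, 3 without control replicate 2 and 1 without QKI-knockdown replicate 2, where the lone library of a group is assumed to vary like the others. The calls for *QKI* appeared with the block (log2 fold change -1.72), with median centring and the block (-1.75) and with voom and the block (-1.89), but not with the block and no limit on low values (adjusted p = 0.0669 by limma), where 0 of 16708 genes were called. Centring removed a shift of 0.03 (log2).

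No member and no other Notch pathway gene was called under any of these alternatives. The 5 settings that rescale the values (both pseudocounts, median centring and voom without and with the block) turned the direction of none of the 9 tested members in 45 values, and the other settings with every library kept leave the log2 fold change or its centred value as it was by construction. Leaving out 1 library turned the direction in 14 of 36 values, and none was called. The log2 fold change then ranged from -0.17 to 0.072 for *NUMB*, with 0.06 without control replicate 2 and 0.072 without QKI-knockdown replicate 1. For *NUMBL* it ranged from -0.76 to 0.70, with 0.63 without QKI-knockdown replicate 2. For *NOTCH1* the range was -0.46 to 1.00, with -0.29 without QKI-knockdown replicate 1, for *NOTCH2* -0.14 to 0.0027, and for *NOTCH3* -0.18 to 0.032. It was -0.32 to 0.40 for *JAG1*, with -0.15 without control replicate 2, -0.25 to 1.11 for *JAG2*, -0.076 to 0.28 for *RBPJ*, with -0.0043 without control replicate 1, and -0.38 to 0.0071 for *HES1*. Each such fit sets a library against one of the other number. *HEY1* was under the limit in these fits and has no value there. The share of *NUMB* in *NUMB* plus *NUMBL* differed between the groups by -0.06 percentage points, and by -12.7 to 12.6 without 1 library. Depth limits *HEY1*, *HES1* and *NOTCH3*, with at most 145 reads per library.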

Other observations

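Of the other Notch pathway genes, 13 were listed below a mean of 0.5 RPKM and were left out of the fit with that limit. *DLL1* and *DLL4*, which encode ligands of the Delta family, were at most 0.521 and 0.147 RPKM in any library, and *NOTCH4*, which encodes the remaining receptor, at most 0.0660 RPKM. *DLL1* was at 0.456 and 0.136 RPKM in control replicates 1 and 2 and at 0.521 and 0.235 RPKM in QKI-knockdown replicates 1 and 2, so that the number again separated the libraries more than the group. *DTX4*, which encodes a ubiquitin ligase of the Deltex family, was at 0.238 and 0.344 RPKM in control and at 0.377 and 0.629 RPKM in QKI-knockdown replicates 1 and 2, higher within both numbers. *HES7*, a target gene of the HES family, was at 0.400 and 0.351 RPKM in control and at 0.234 and 0.276 RPKM in QKI-knockdown replicates 1 and 2, lower within both numbers. *HEYL*, of the same family as *HEY1*, was at 0.583 and 0.233 RPKM in control and at 0.568 and 0.393 RPKM in QKI-knockdown replicates 1 and 2. With no limit on low values none of the 13 passed limma, with an adjusted p of 1.00 for *DTX4* and *HES7* without the block and of 0.564 and 0.804 with it.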
